A study of Mus musculus with 2 samples.

Results

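The transcripts described here were those of 6 matrix metalloproteinases, Mmp8, Mmp9, Mmp12, Mmp13, Mmp14 and Mmp19, and of 2 of their inhibitors, Timp1 and Timp2, which were all found by symbol among the 27998 genes listed for both libraries. The cells were tumor mononuclear phagocytes (TMPs) that stained for MerTk and CD64 and were sorted from B16 melanomas, a transplantable mouse skin tumor line grown in C57Bl/6 mice. 1 library came from Fcmr+/+ mice and 1 from Fcmr-/- mice, whose germline lacks Fcmr, the gene of a putative IgM receptor. The Fcmr+/+ mice were littermates matched for sex and age, as the study's methods put it. Neither the labels nor the methods give the age or number of mice behind each library. Each was therefore taken as 1 sample, no test between genotypes was made, and every interval below is an exact 95% interval that covers counting error only.

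After the study's filters, 6352 Fcmr+/+ and 7999 Fcmr-/- cells remained, with 128408544 and 124630621 unique molecular identifiers (UMIs, each standing for 1 captured transcript). Fcmr-/- cells were shallower, with a median of 12911 UMIs against 17973.5, and 73 cell barcodes occurred in both libraries. Fcmr itself had 7 and 6 UMIs, too few to check either genotype. Of the genes behind the sort, Mertk was at 62.8 CPM (UMIs per 1e+06 UMIs) in Fcmr+/+ and 48.7 in Fcmr-/- cells, and Fcgr1, which encodes CD64, at 250.4 and 394 CPM. The 9 macrophage markers summed to 9931 and 9768 CPM, and 7 fibroblast markers to 1.363 and 1.196 CPM.

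Matrix metalloproteinases are zinc-dependent enzymes that cut collagens, elastin and other proteins of the extracellular matrix. Tissue inhibitors of metalloproteinases (TIMPs) block their active site, and in tumors macrophages are a known source of both. Mmp8 and Mmp13 encode collagenases, Mmp12 encodes macrophage elastase and Mmp9 a gelatinase, whereas Mmp14 encodes a membrane-anchored enzyme that activates the precursor of MMP2 together with TIMP2.

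Both collagenase transcripts were more abundant in the Fcmr-/- library and both inhibitor transcripts less abundant, while the other proteases differed little. Mmp8 was at 24.8 CPM (23.9 to 25.7) in Fcmr+/+ and 74.1 CPM (72.6 to 75.6) in Fcmr-/- cells, a 2.99-fold difference (2.87 to 3.11). Mmp13 was at 42.7 CPM (41.5 to 43.8) and 99.7 CPM (98.0 to 101), 2.34-fold higher in Fcmr-/- cells (2.26 to 2.41). Thus each collagenase was higher in the Fcmr-/- library by far more than counting error. Mmp12, the most abundant protease of the 6, was at 632 CPM (628 to 636) and 810 CPM (805 to 815), 1.28-fold higher (1.27 to 1.29).

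The inhibitors had the opposite direction. Timp1, a secreted inhibitor of most soluble metalloproteinases, was at 40.3 CPM (39.2 to 41.4) in Fcmr+/+ and 23.2 CPM (22.4 to 24.1) in Fcmr-/- cells, so it was 1.74-fold higher in Fcmr+/+ cells (1.66 to 1.82). Timp2 was at 580 CPM (576 to 584) and 356 CPM (353 to 360), 1.63-fold higher in Fcmr+/+ cells (1.61 to 1.65).

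The remaining 3 proteases differed by less than 1.5-fold or were scarce. Mmp14 was at 85.5 CPM (83.9 to 87.1) and 101 CPM (98.9 to 102), and Mmp19, which encodes a protease of basement membrane proteins, at 72.9 CPM (71.4 to 74.4) and 64.1 CPM (62.7 to 65.5). Only 46 Fcmr+/+ and 59 Fcmr-/- cells held Mmp9, with 87 and 125 UMIs in all, or 0.678 and 1.00 CPM. It fell under the minimum of 5 CPM in either library that was set for fold comparisons, so 7 of the 8 genes were compared.

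**Figure D1:**
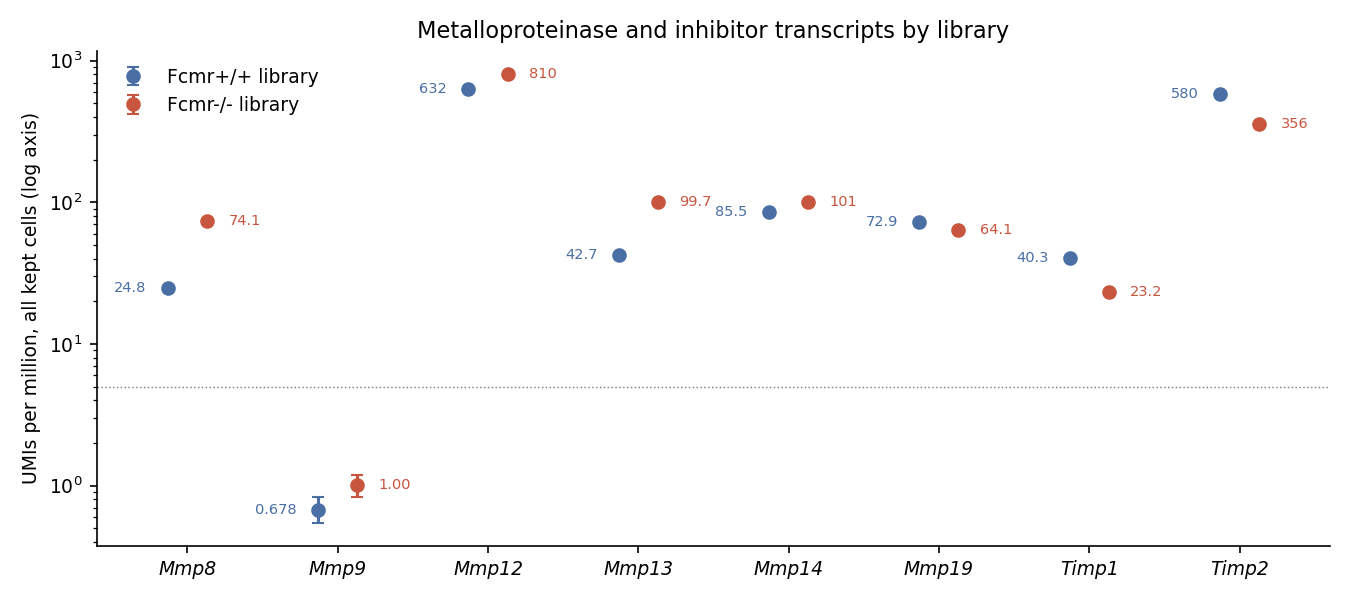
CPM over all kept cells (log axis) for the 8 genes in the Fcmr+/+ library (blue) and the Fcmr-/- library (red), with exact 95% Poisson bars that are mostly smaller than the points and a dotted line at 5 CPM. Mmp8 and Mmp13 sit higher in the Fcmr-/- library, Timp1 and Timp2 sit lower, and Mmp9 lies under the line in both.

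With 1 CPM added to each level, 2 of the 7 genes (Mmp8, Mmp13) were at least 1.5-fold higher in the Fcmr-/- library, where 2.4% of 8701 genes with at least 5 CPM passed that fold. Both also passed 2-fold, which 0.793% of genes did. Another 2 (Timp1, Timp2) were at least 1.5-fold lower, against 1.69% of all genes. Mmp8 had a log2 ratio of 1.54, which 32 genes exceeded, and Mmp13 one of 1.21, which 46 exceeded. At the other end, 65 genes had a lower ratio than Timp1 (-0.77) and 88 a lower one than Timp2 (-0.70). The median log2 ratio was 0.23 over the 7 genes and 0.00226 over all 8701.

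**Figure D2:**
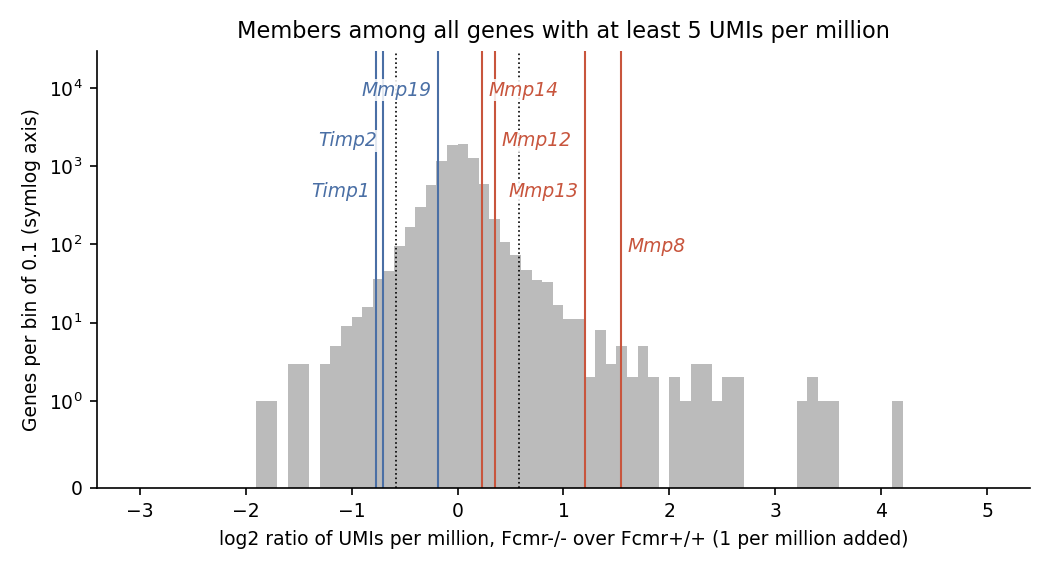
Number of genes (symlog axis) by log2 ratio of CPM, Fcmr-/- over Fcmr+/+, for the 8701 genes with at least 5 CPM in either library, in gray bars of 0.1. Lines mark the 7 members tested and dotted lines the 1.5-fold limits, with Mmp8 at 1.54 and Mmp13 at 1.21 to the right of them and Timp1 at -0.77 and Timp2 at -0.70 to the left.

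At equal depth, more Fcmr-/- cells carried each collagenase, and each positive cell carried more of it. With every cell thinned to 5000 UMIs, Mmp8 was detected in 9.63% (8.92 to 10.4) of Fcmr+/+ and 20.5% (19.6 to 21.4) of Fcmr-/- cells. Mmp13 was detected in 9.40% (8.69 to 10.1) and 19.4% (18.5 to 20.3), and Mmp12 in 39.0% (37.8 to 40.2) and 47.6% (46.5 to 48.7). Without thinning, the shares were 21.7% and 32.3% for Mmp8 and 17.4% and 31.5% for Mmp13. The mean per positive thinned cell was 1.57 and 2.42 UMIs for Mmp8 and 2.71 and 3.22 UMIs for Mmp13.

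For the inhibitors, Timp1 was detected in 12.4% (11.6 to 13.2) and 7.68% (7.10 to 8.28) of thinned cells and Timp2 in 76.7% (75.6 to 77.7) and 63.5% (62.5 to 64.6). Unthinned shares were 27.3% and 15.8% for Timp1 and 89.6% and 79.7% for Timp2. Both inhibitors were therefore found in a smaller share of Fcmr-/- cells at equal depth. No cell type in the sort is known to lack these transcripts, so the part of free RNA in the low shares was not tested.

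By the share of UMIs in the top cells, transcripts of Mmp8, Mmp12, Mmp13 and Timp1 were held by fewer cells than those of Mmp14 and Timp2. This share also rises when a gene has few UMIs, and genes were not matched for level. The 5% of cells with the most Mmp12 held 57.2% of its UMIs in the Fcmr+/+ and 52.4% in the Fcmr-/- library, though they held 6.45% and 6.12% of all UMIs. For Mmp13 these cells held 77.5% and 60.04%, and for Mmp8 56.3% and 50.3%. The same share of cells held 57.7% and 65.7% of Timp1 UMIs, but 26.0% and 24.3% of those of Mmp14 and 21.4% and 24.2% of those of Timp2. In the Fcmr+/+ library, Mmp12 and Timp2 had similar totals, 81156 and 74438 UMIs, but Mmp8 and Timp1 had 3182 and 5176. In thinned Fcmr+/+ cells the ratio of variance to mean was 34.31 for Mmp12 and 6.399 for Mmp13. It was 2.398 for Mmp8, 3.089 for Timp1 and 2.557 for Timp2, so Mmp8 was not above Timp2 by this ratio. In thinned Fcmr-/- cells Mmp8 and Timp1 (2.738) were both above Timp2 (2.217). A single Fcmr+/+ cell had 815 Mmp12 UMIs.

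Depth moved with these levels. When each library was split into 4 equal bins by UMIs per cell, Mmp8 went from 42.03 CPM in the shallowest to 19.2 CPM in the deepest Fcmr+/+ bin and from 173 to 43.3 CPM in Fcmr-/- cells. Timp2 ran the other way, from 287 to 682 CPM and from 220 to 416 CPM. In each of the 4 bins Mmp8 and Mmp13 were higher, and Timp1 and Timp2 lower, in the Fcmr-/- library. The bins were made within each library, so bins of the same rank were not at equal depth. The shallowest Fcmr+/+ bin had Mmp13 at 80.8 CPM, against 71.1 CPM in the deepest Fcmr-/- bin, and their Mmp8 levels, given above, were close. The part of depth in the differences between the libraries was not tested by this split.

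Mmp8, Mmp12 and Mmp13 are neighbors on chromosome 9 (GRCm38, plus strand), where Mmp13 (ENSMUSG00000050578) spans 7272514 to 7283331, Mmp12 (ENSMUSG00000049723) 7344381 to 7369499 and Mmp8 (ENSMUSG00000005800) 7558456 to 7568485. The other genes lie on other chromosomes: Mmp9 (ENSMUSG00000017737) on the plus strand of chromosome 2, 164940780 to 164955850, Mmp14 (ENSMUSG00000000957) on the plus strand of chromosome 14, 54431612 to 54445364, and Mmp19 (ENSMUSG00000025355) on the plus strand of chromosome 10, 128790910 to 128800824. Timp1 (ENSMUSG00000001131) is on the plus strand of chromosome X, 20870166 to 20874735, and Timp2 (ENSMUSG00000017466) on the minus strand of chromosome 11, 118301069 to 118355740. The span of Cep295nl overlaps that of Timp2 on the same strand. Only gene spans were compared, so whether the genes share exons, and any effect on the Timp2 level, was not tested.

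Since the transcripts of these 3 neighbors were correlated across single cells, the 250 bases before their RefSeq transcription starts (GRCm38.p6) are printed here, with capitals for the Ets-type motif AGGAAGT, read on either strand, and for the AP-1 motif TGANTCA. The regions are chr9:7558179-7558428 for Mmp8, chr9:7344147-7344396 for Mmp12 and chr9:7272264-7272513 for Mmp13, all on the plus strand.
Mmp8: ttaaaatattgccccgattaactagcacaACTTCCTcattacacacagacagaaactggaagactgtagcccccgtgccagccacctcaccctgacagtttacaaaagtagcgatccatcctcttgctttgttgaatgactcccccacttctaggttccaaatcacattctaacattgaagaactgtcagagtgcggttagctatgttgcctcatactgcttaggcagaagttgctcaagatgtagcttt
Mmp12: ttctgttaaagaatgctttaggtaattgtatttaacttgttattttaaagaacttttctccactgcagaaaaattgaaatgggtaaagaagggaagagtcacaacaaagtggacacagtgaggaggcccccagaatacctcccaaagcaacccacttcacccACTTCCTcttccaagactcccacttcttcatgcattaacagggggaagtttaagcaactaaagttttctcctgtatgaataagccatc
Mmp13: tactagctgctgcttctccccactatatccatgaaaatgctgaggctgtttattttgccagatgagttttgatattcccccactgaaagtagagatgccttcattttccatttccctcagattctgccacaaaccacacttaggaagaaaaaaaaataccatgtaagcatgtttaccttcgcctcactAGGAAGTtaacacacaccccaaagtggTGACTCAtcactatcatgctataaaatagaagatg
The Ets-type motif began 221 bases before the start of Mmp8, 88 before that of Mmp12 and 62 before that of Mmp13. Mmp13 also held the AP-1 motif, 35 bases before its start. The table of promoters had an entry for 6 of the 8 genes, not for Mmp9 and Mmp19. The Ets-type motif was in 4 of these 6 (Timp1 being the other) against 7.69% of 32851 promoters, and the AP-1 motif in 1 of 6 against 6.75%. The hypoxia response core ACGTG, on either strand, was in Mmp14 and Timp1 alone among the 6 and in 16.6% of promoters. The motifs were chosen with the sequences in view, and a match describes letters, not binding.

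Across single cells, the 3 neighbors formed the only positively linked group. Of the 28 pairs of the 8 genes, 3 had a Pearson r of at least 0.1 in both libraries. Cells thinned to 5000 UMIs were used, 6352 and 7999 of them. Among all pairs of genes found in at least 10% of thinned cells of both libraries, 0.292% passed. Each of the 3 pairs holds Mmp8 or Mmp13, which were not in that set, so this share is not a like comparison for them. No pair among Mmp12, Mmp14, Mmp19 and Timp2, which were in it, passed. Mmp9 was below 10% in both libraries, which leaves 21 pairs without it. Mmp8 and Mmp13 reached 10% in the Fcmr-/- library alone, and Timp1 in the Fcmr+/+ library alone. Mmp12 and Mmp13 had an r of 0.34 in Fcmr+/+ and 0.40 in Fcmr-/- cells. For Mmp8 and Mmp12 it was 0.17 and 0.34, and for Mmp8 and Mmp13 it was 0.13 and 0.29. These 3 pairs also passed after the mean of each cell state was removed, at 0.30 and 0.36 for Mmp12 and Mmp13. By Spearman's rho, Mmp8 and Mmp13 were at 0.094 and 0.24, so that pair dropped under 0.1 in Fcmr+/+ cells. Cells of a library share its preparation, and these values describe 1 library each.

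All 3 transcripts were found together in 91 thinned Fcmr+/+ cells, 1.43% (1.15 to 1.76), and in 499 Fcmr-/- cells, 6.24% (5.72 to 6.79). The product of the separate shares would have given 22.4 and 151 cells, so joint detection exceeded it 4.06-fold and 3.30-fold. This product was taken over all cell states together, so states that hold more of all 3 add to the excess. No product within states was formed.

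Whether the chromosomal neighborhood as a whole followed this pattern could not be told, as only Mmp27 among its other Mmp genes exceeded 1 CPM. Of the 10 Mmp genes listed on this stretch of chromosome 9, 6 were below 1 CPM in both libraries. The remaining gene, Mmp27, lies next to Mmp8 at 7571396 to 7581885 and was at 20.01 and 18.74 CPM. Its r with Mmp8 was 0.029 and 0.057, with Mmp12 0.035 and 0.029 and with Mmp13 -0.012 and -0.0045, whereas with Timp2 it was 0.14 and 0.10. After the state means were removed, the contrast was largely gone. The r of Mmp27 was then 0.040 and 0.074 with Mmp8 and 0.044 and 0.034 with Mmp12. With Mmp13 it was 0.0049 and 0.010, and with Timp2 0.053 and 0.062. Mmp27 was found in 8.22% of thinned Fcmr+/+ and 7.88% of thinned Fcmr-/- cells and was examined further after its values were seen.

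The inhibitors were weakly and inversely linked to each other. Timp1 and Timp2 had an r of -0.15 in Fcmr+/+ and -0.09 in Fcmr-/- thinned cells, and of -0.20 and -0.11 without thinning. Thinned cells with both numbered 0.841 and 0.813 times the product of the separate shares. With the state means removed, their r was -0.077 and -0.047. Mmp14 and Timp2, whose proteins act on pro-MMP2 together, had an r of -0.10 and -0.11. In thinned cells, no other pair was at or below -0.1 in both libraries. After the state means were removed, the r of Mmp14 and Timp2 was -0.040 and -0.048.

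**Figure D3:**
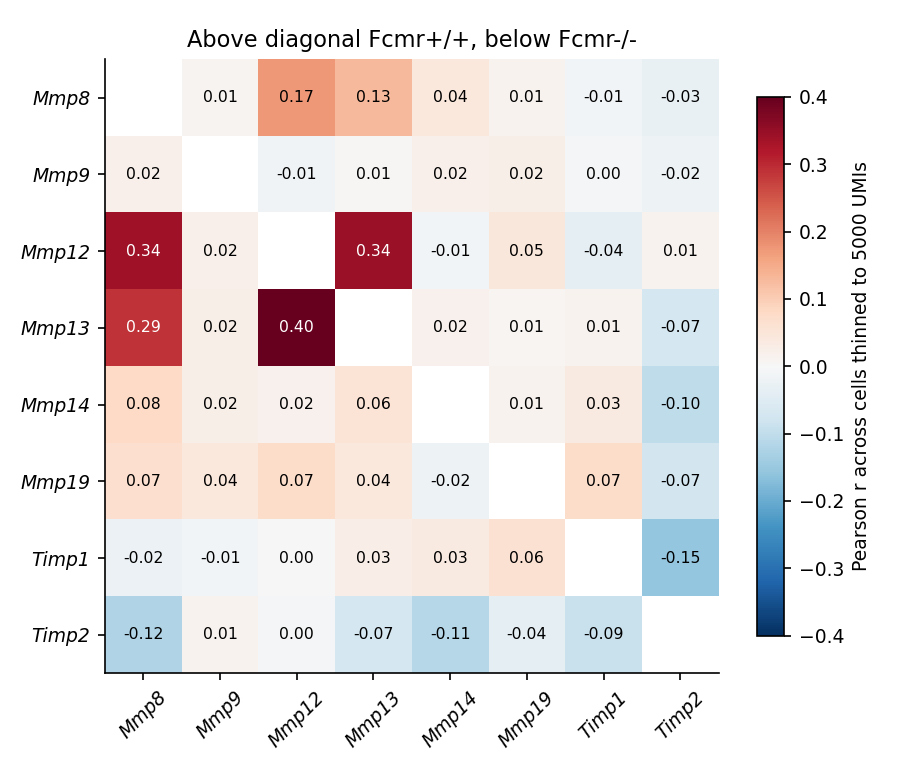
Pearson r across cells thinned to 5000 UMIs for each pair of the 8 genes, with the Fcmr+/+ library above the diagonal and the Fcmr-/- library below it. The deepest red squares join Mmp8, Mmp12 and Mmp13, with 0.34 and 0.40 for Mmp12 and Mmp13, and Timp2 gives the bluest ones.

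The leading correlates of Mmp12 and of Timp2 were different genes. Overlap between their full lists was not examined, and state means were not removed from these values. Mmp12 correlated at 0.2 or more in both libraries with 31 of 4721 genes (0.657%), led by Lgals3 (galectin-3, 0.39 and 0.35), Cd9 (a tetraspanin, 0.33 and 0.35), Fth1 (ferritin heavy chain, 0.32 and 0.34), Il7r (0.31 and 0.37) and Gpnmb (0.31 and 0.34). Timp2 did so with 46 genes (0.974%), led by Sepp1 (selenoprotein P, 0.46 and 0.41), Gas6 (a ligand of the MerTk receptor, 0.42 and 0.39), Serpinb6a (0.45 and 0.39) and the cathepsin genes Ctsd (0.48 and 0.37) and Ctsb (0.44 and 0.34). At the other end, 30 genes (0.635%) were at -0.2 or lower with Timp2 in both libraries, led by Btg1, Srgn, S100a6, Thbs1 and Il1b, the gene of interleukin 1 beta (-0.27 and -0.33). No gene reached 0.2 with Mmp14 or Mmp19 (0.0% each). Mmp8, Mmp9, Mmp13 and Timp1 were in under 10% of thinned cells in at least 1 library and were not searched.

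To ask in which TMPs these genes were used, the cells were clustered without the 8 genes and without the matrix genes listed below, which gave 10 states. State 1 (2043 cells) was led by Ccl17 and Cd209a, state 4 (1606) by Gpr34 and Tfrc with Gas6, state 8 (1135) by Amica1 and Zmynd15, and state 10 (533) by Cdkn1c and Adm. State 2 (1991) was Cxcl9-high-like, state 3 (1673) inflammatory-like with Csf3, Cxcl3 and Il1b, state 5 (1515) dividing, state 7 (1417) interferon-high-like and state 9 (1021) lipid-associated-like with Gpnmb and Spp1.

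State 6 (1417 cells) was led by hemoglobin genes and then by Ptges, Adm and Nos2, and 9 of 10 hypoxia markers were at least 1.5-fold higher there than in the rest. In state 7 and in state 10, 7 of these 10 markers passed that fold as well. State 6 was also the shallowest, with a median of 9017 UMIs. State 2 was nearly all from 1 library, with 75 Fcmr+/+ and 1916 Fcmr-/- cells, so comparisons of the libraries within states used the other 9.

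In this clustering, the collagenases and the elastase peaked in the same state, where Timp2 was low. Timp2 was not their mirror image, as states 10 and 9 came next after the highest state for both Mmp12 and Timp2, whose r across cells was 0.015 and -0.0034. Mmp12 was highest in state 6, at 2093 CPM (2062 to 2126) in Fcmr+/+ and 3279 CPM (3238 to 3320) in Fcmr-/- cells, followed by state 10 (2079 and 2903) and state 9 (1904 and 2008). It was lowest in state 4, at 195 and 293 CPM. In Fcmr+/+ cells the intervals of states 6 and 10 overlapped, so these neighbors in the order did not differ beyond counting error.

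Mmp13 was also highest in state 6, at 163 CPM (154 to 172) and 364 CPM (350 to 378), and lowest in state 4, at 12.6 and 21.8 CPM. Mmp8 was at 54.9 CPM (49.8 to 60.3) and 236 CPM (226 to 248) in state 6. The lowest Mmp8 level was 15.8 CPM in state 5 for Fcmr+/+ and 20.3 CPM in state 4 for Fcmr-/- cells. In Fcmr+/+ cells, Mmp8 in state 9 (46.5 CPM, 41.1 to 52.5) overlapped that in state 6.

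Cells with all 3 transcripts were also the most frequent in state 6 and among the least frequent in state 4. They made up 5.30% of Fcmr+/+ and 17.5% of Fcmr-/- cells in state 6, and 0.0816% and 1.57% in state 4. The shares in state 4 rest on 1 and 6 cells. In the Fcmr-/- library, states 1 (13 cells, 1.61%) and 5 (14 cells, 1.84%) were close to state 4. In the inflammatory-like state 3 they made up 1.28% and 8.89%, and in the interferon-high-like state 7 2.73% and 10.6%. The shares were 4.24% and 8.40% in state 9 and 1.04% and 4.67% in state 10, so state 10, which came second for Mmp12, stood lower for the joint detection.

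Timp2 was highest in state 4, at 877 CPM (867 to 888) and 762 CPM (742 to 784), then in state 10 at 797 and 672 CPM. State 6 had the lowest level in Fcmr+/+ cells, 250.2 CPM (239 to 261), and state 7 in Fcmr-/- cells, 149 CPM (143 to 156). Timp1 had a pattern of its own and was highest in the Ccl17 and Cd209a-high state 1, at 95.4 CPM (91.4 to 99.4) and 71.2 CPM (66.5 to 76.2). In that state 8 of 10 dendritic cell markers were at least 1.5-fold higher than in the rest (67.3 against 5.14 CPM in sum), as were 7 of 7 MHC class II and 8 of 9 monocyte markers, and their part in the Timp1 level was not tested. State 1 alone held 42.7% of all Timp1 UMIs in Fcmr+/+ and 29.1% in Fcmr-/- cells. It made up 19.4% of Fcmr+/+ but 10.1% of Fcmr-/- cells, so the 2 shares of UMIs are not comparable as they stand. The lowest Timp1 levels were 13.3 CPM in state 9 and 9.17 CPM in state 4.

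Between states, Mmp14 differed by up to 2.51-fold in Fcmr+/+ and 3.25-fold in Fcmr-/- cells, and Mmp19 by 3.69-fold in both. Mmp14 was highest in state 8 of Fcmr+/+ cells (135 CPM, 127 to 142), where state 7 overlapped it (122 CPM), and in state 7 of Fcmr-/- cells (183 CPM, 176 to 190). Mmp19 was highest in state 9 (124.02 CPM) and state 1 (117 CPM) of Fcmr+/+ cells and in state 3 (122 CPM) and state 9 (120 CPM) of Fcmr-/- cells, each pair overlapping, and lowest in the dividing state 5 at 33.6 and 33.1 CPM. Mmp9 did not exceed 3.24 CPM in any state.

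In all, 7 of 7 genes were at least 2-fold apart between their highest and lowest state in both libraries, which 35.7% of all genes were. These 7 were among the genes most variable between cells before they were set aside. The share that passed was 90.8% among variable genes and 27.4% among the others. The states were built from 1305 of the 1339 variable genes, which can raise the share of these. Neither share is thus a like comparison for the 7 genes set aside, and 7 of 7 is not read as particular to them. With other cluster settings the count stayed at 7, and state 4 gave the most cells to the cluster highest in Timp2, except in Fcmr-/- cells when genes were scaled within each library, where state 1 did. The largest contributor to the cluster with the most protease transcript was state 6 or 3 for Mmp8, state 6, 9, 10 or 3 for Mmp12 and state 6 or 7 for Mmp13, depending on the setting and the library. Such a contribution could be a minority. With the matrix genes kept in the clustering, 36.8% of Fcmr-/- cells in the cluster highest in Mmp8 and Mmp12 came from state 3. The shared peak did not hold in all settings. Mmp8, Mmp12 and Mmp13 each peaked in a different cluster at resolution 1.2 in both libraries, and with 20 principal components in Fcmr+/+ cells. With the matrix genes kept, Mmp13 peaked apart from Mmp8 and Mmp12 in both libraries. Mmp12 peaked apart from Mmp8 and Mmp13 in Fcmr+/+ cells when genes were scaled within each library. At resolution 0.4 all shared their highest cluster.

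**Figure D4:**
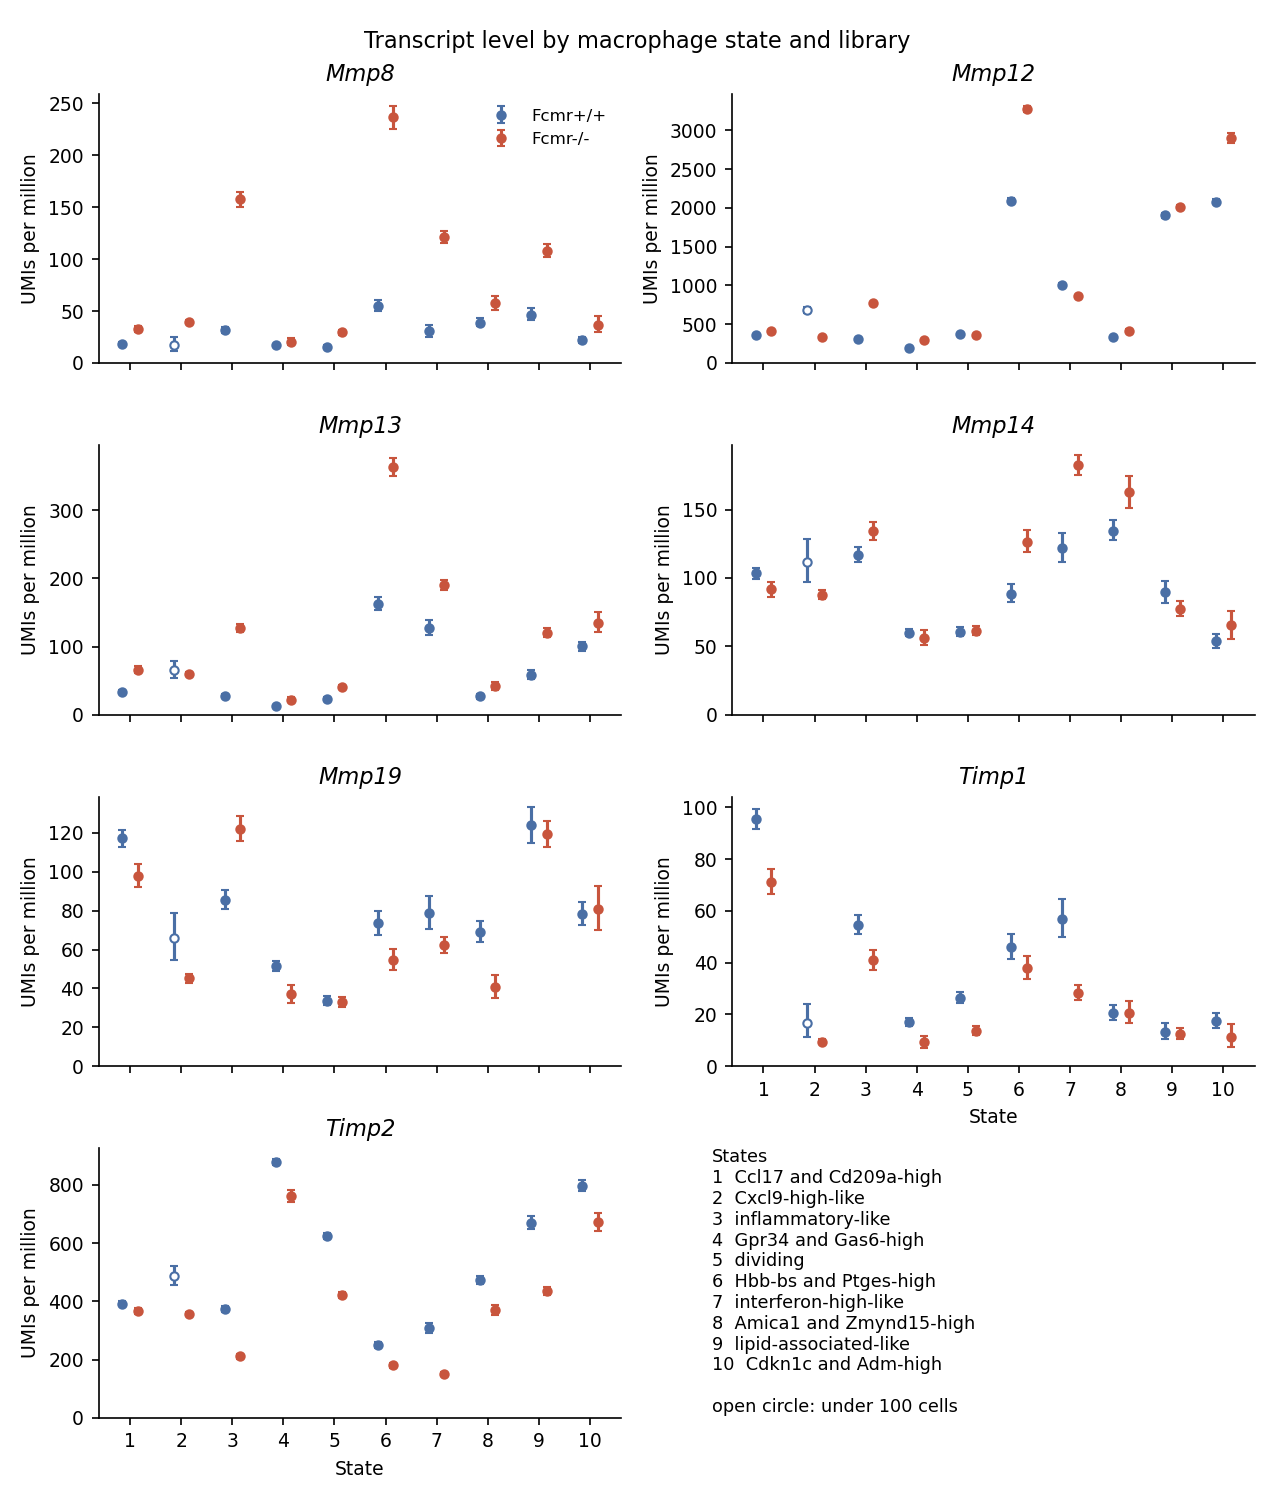
CPM (linear axes from 0, with exact 95% Poisson bars) of the 7 genes with at least 5 CPM in each of the 10 states, for Fcmr+/+ (blue) and Fcmr-/- cells (red), where the open circle in state 2 stands for 75 Fcmr+/+ cells. Mmp8, Mmp12 and Mmp13 are highest in state 6, Timp1 in state 1 and Timp2 in state 4 in both libraries.

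Within states, the difference between the libraries held for the collagenases and for Timp2 in direction but not in size. Mmp8 was higher in Fcmr-/- cells in 9 of 9 states and at least 1.5-fold so in 7. The largest fold was in state 3, from 31.3 CPM (28.5 to 34.3) to 158 CPM (150 to 165), 5.03-fold (4.54 to 5.59). State 6 gave 4.31-fold (3.88 to 4.80), state 7 3.99-fold (3.33 to 4.82) and state 4 1.19-fold (0.974 to 1.43), an interval that includes 1.

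Mmp13 was likewise higher in 9 of 9 states and at least 1.5-fold so in 7, from 1.35-fold in state 10 to 4.57-fold (4.09 to 5.11) in state 3. In state 2, with its 75 Fcmr+/+ cells, Mmp8 was at 17.4 and 39.4 CPM and Mmp13 at 65.8 and 59.8 CPM. Mmp12 was mixed. It was 2.47-fold higher (2.38 to 2.56) in state 3 and 1.57-fold higher (1.54 to 1.60) in state 6 of Fcmr-/- cells, but 0.859 times the Fcmr+/+ level (0.829 to 0.890) in state 7.

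Timp2 was lower in Fcmr-/- cells in 9 of 9 states, by at least 1.5-fold in 3. In state 7 it was 2.06-fold higher in Fcmr+/+ cells, in state 3 1.77-fold and in state 9 1.54-fold, but in state 1 only 1.07-fold. Timp1 was lower in 8 of 9 states, with 56.8 CPM (49.7 to 64.5) in Fcmr+/+ and 28.2 CPM (25.5 to 31.2) in Fcmr-/- cells of state 7, and was at 20.4 and 20.5 CPM in state 8. Mmp19 was lower in 7 of 9 and Mmp14 higher in 6 of 9.

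The calls for the inhibitors depended on how states were weighted, and the libraries differed in their mix of states. State 4, highest in Timp2, made up 19.3% of Fcmr+/+ and 4.76% of Fcmr-/- cells. State 10, next for Timp2, made up 6.03% and 1.88%, but state 9 after it 4.46% and 9.23%. State 7, lowest in Timp2 among Fcmr-/- cells, made up 4.61% and 14.1%, and state 1, highest in Timp1, 19.4% and 10.1%. Beyond the weighting below, the part of this mix in the inhibitor differences was not tested. When the states were weighted by their shares of Fcmr+/+ UMIs, 0 of the 7 genes were at least 1.5-fold lower, where 0.757% of all genes were and 1.1% were higher by that fold, both below the unweighted shares. The log2 ratios were -0.50 for Timp1 and -0.34 for Timp2, while Mmp8 (1.34) and Mmp13 (0.99) stayed past the fold. Without the cells of state 2, a comparison added after the data were seen, Timp2 alone was lower by that fold (-0.70, against 1.39% of all genes), Timp1 was at -0.47, and Mmp12 joined the higher genes at 0.68, against 2.36%.

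Per inhibitor transcript, Fcmr-/- TMPs carried more protease transcript. Summed over the genes, there were 1.38 (1.37 to 1.40) protease UMIs per inhibitor UMI in Fcmr+/+ and 3.03 (3.00 to 3.06) in Fcmr-/- cells, a 2.19-fold difference. Mmp12 made up 73.6% and 70.5% of the protease UMIs, and without it the ratios were 0.365 and 0.894. The ratio was higher in Fcmr-/- cells in 9 of 9 states, by 1.23-fold in state 1 to 3.90-fold in state 3.

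The ratio ran from 0.377 (0.368 to 0.385) in state 4 to 8.35 (8.001 to 8.719) in state 6 of Fcmr+/+ cells, and from 0.556 (0.531 to 0.582) to 18.7 (17.8 to 19.6) in the same states of Fcmr-/- cells. The spread between states was thus wider than the difference between libraries within any of the 9 states. In state 2 it was 1.87 in the 75 Fcmr+/+ cells and 1.54 in Fcmr-/- cells.

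Counted per thinned cell, 14.11% (13.26 to 14.99) of Fcmr+/+ and 26.3% (25.3 to 27.2) of Fcmr-/- cells had a protease UMI and no inhibitor UMI. The reverse, an inhibitor and no protease, was found in 24.3% (23.3 to 25.4) and 15.7% (14.9 to 16.5). At least 3 of the 6 proteases were found in 9.46% (8.75 to 10.2) and 18.3% (17.4 to 19.2). These shares count transcripts and say nothing of enzyme activity.

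**Figure D5:**
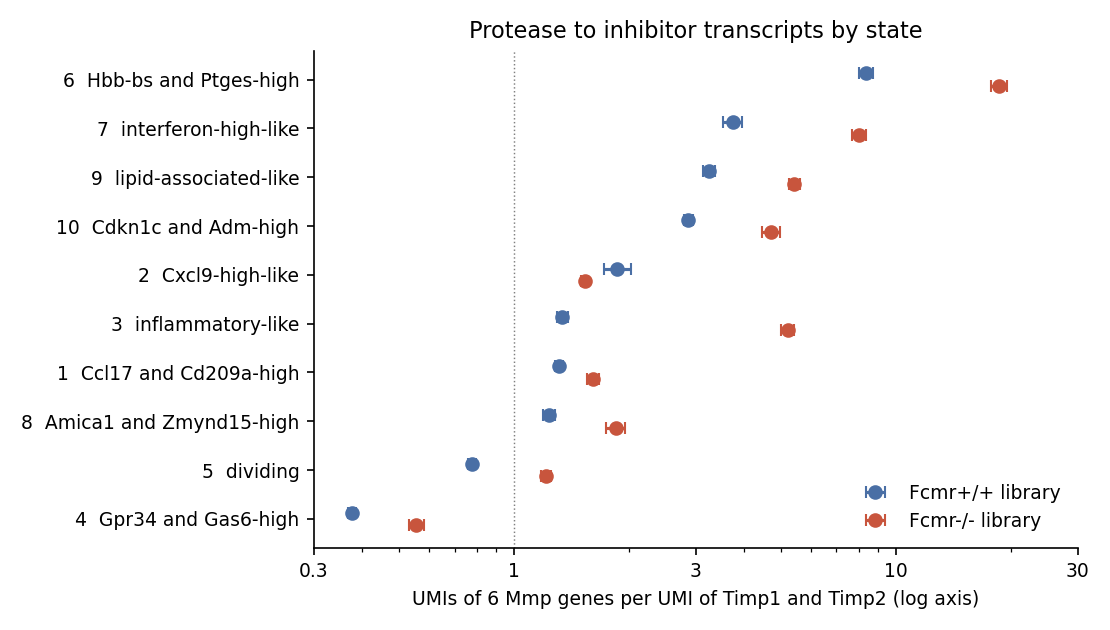
UMIs of the 6 proteases per UMI of Timp1 and Timp2 (log axis, exact 95% intervals) in each state for Fcmr+/+ (blue) and Fcmr-/- cells (red), with a dotted line at 1 and states ordered by their Fcmr+/+ ratio. State 6 is at 8.35 and 18.7, state 4 at 0.377 and 0.556, and only state 2 has its Fcmr-/- point to the left.

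Mmp8 is best known from neutrophils, so neutrophil markers were set beside it. The 10 markers summed to 31.7 CPM in Fcmr+/+ and 49.2 CPM in Fcmr-/- cells, and to 36.12 and 74.96 CPM in state 6. S100a8 (14.0 and 19.6 CPM) and Csf3r (15.7 and 24.1 CPM) carried most of this. S100a9 had 103 and 420 UMIs (0.802 and 3.37 CPM) and Lcn2 51 and 175 (0.397 and 1.40 CPM), so both were also higher in Fcmr-/- cells. Ltf had 20 and 21, Retnlg 30 and 36 and Cxcr2 47 and 29 UMIs. The granulocyte genes Ngp, Ly6g and Camp were at or near 0, with no UMI of Ngp in either library, 0 and 3 of Ly6g and 0 and 2 of Camp. Over both libraries, the sum of the 10 markers was highest in state 3, at 65.9 CPM against 37.4 CPM in the rest. States 7 and 6 followed at 61.0 and 55.0 CPM. State 3 was also the state with the largest Mmp8 fold between the libraries. The part of neutrophil transcripts in that fold was not tested. Among cells without a UMI of any of the 10 markers, Mmp8 was at 21.2 CPM (20.1 to 22.3) and 67.6 CPM (65.7 to 69.6). It was at 27.7 CPM (26.2 to 29.3) and 81.5 CPM (78.9 to 84.1) in cells with 1 of these genes. In cells with at least 2 it was at 39.4 CPM (35.3 to 43.9) and 84.99 CPM (79.02 to 91.3). Its level thus went up with their number in Fcmr+/+ cells. In Fcmr-/- cells it was higher with 1 gene than with none, while the intervals for 1 and for at least 2 overlapped. This split used unthinned cells, in which a deeper cell more easily shows several of these genes. The part of depth and of cell state in the trend was not tested.

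Cells with UMIs of at least 2 genes from the neutrophil, T and NK, B, fibroblast, endothelial or melanoma lists numbered 2534 of 6352 and 3278 of 7999. Without them the log2 ratio was 1.75 for Mmp8, 1.22 for Mmp13, -0.67 for Timp1 and -0.72 for Timp2. Cells were not thinned for this filter, and a deeper cell meets it more easily. Leaving these cells out can therefore also select by depth, which was not tested. The dendritic markers, not part of this filter, summed to 10.5 and 17.03 CPM. Among the lists of the filter, the T and NK markers summed to 1.03 and 14.7 CPM and the melanoma markers to 40.2 and 63.6 CPM, the latter highest in state 10 at 158 CPM. Their part in the levels of the proteases was otherwise not tested.

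The rest of the family was almost silent in these TMPs. Of 20 further Mmp, Timp and Reck genes, 19 were below 1 CPM in both libraries and 4 had no UMI at all, which allows up to 0.0234 and 0.0241 CPM for each. Mmp2, whose precursor MMP14 activates, had 40 and 21 UMIs. Timp3, which encodes a matrix-bound inhibitor, had 8 and 16 UMIs, and Mmp27 was the only member of this list with at least 5 CPM.

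Other genes of matrix turnover were read against the same shares of all genes, 2.4% higher and 1.69% lower. Of 20 genes of the plasminogen system and other matrix proteases, 15 were tested and 0 were at least 1.5-fold higher in Fcmr-/- cells, with a median log2 ratio of -0.11. Plau, which encodes urokinase, was at 21.1 and 19.5 CPM, and its receptor gene Plaur at 250 and 251 CPM.

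Of 16 matrix proteins and binding partners, 13 were tested and 1 was higher. Spp1, which encodes osteopontin, a substrate of metalloproteinases, was at 2719 and 5019 CPM, a 1.85-fold difference (1.84 to 1.85). Among 15 AP-1, Ets and NF-kB regulators and their upstream signals, 14 were tested, 0 were higher and 2 were lower. Jun, a subunit of AP-1, was at 483 and 296 CPM, and Tnf, which encodes an inducer of metalloproteinase genes in many cells, at 259 and 134 CPM.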

How the data were processed

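Sorted TMPs were profiled by droplet-based 3' single-cell RNA sequencing in 2 libraries. The values deposited by the authors are UMI counts that had not been normalized, from Cell Ranger with GRCm38 as the genome. Following the study's filters, cells with 200 to 7000 genes and up to 30% mitochondrial UMIs were kept, as were genes found in 3 cells or more. The count of a gene was summed over a group of cells and given per 1e+06 UMIs of that group (CPM). Because 3' UMIs count transcripts, levels of different genes were compared without a length correction. Before log2 ratios, 1 CPM was added. Exact Poisson intervals were used for UMI sums and Clopper-Pearson ones for shares of cells. A zero count allows 3 counts.

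States were clusters from Seurat 5.3.0 in R 4.3.3 (10 principal components, 30 neighbors, resolution 0.8), made without the members and matrix lists and named only from markers listed beforehand, or else by leading genes. Correlations used log-normalized cells thinned to 5000 UMIs, which left out 0 cells, and thinning to 10000 left out 1189 Fcmr+/+ and 2661 Fcmr-/- cells. Scrublet in scanpy 1.11.5 called 0 doublets in each library, so it did not work, and an alternative left out the 5% of cells with the highest scores. Other steps used scipy 1.17.1, numpy 2.4.6 and Python 3.11.15. On simulated sums for the comparison of the libraries, 99% of 200 changed genes among 8550 were recovered within 0.25 on the log2 scale. The simulated sums held counting noise alone, so this recovery says nothing of the spread between cells, mice or preparations.

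The members, lists and thresholds were chosen with earlier results of these data known. Named genes were the 8 members, list genes past 1.5-fold, the 5 closest correlates at 0.2 or more in both libraries, Fcmr, Mertk, Fcgr1 and the leading genes of states. Other list genes named (Mmp2, Timp3, Mmp27, Plau, Plaur and those of the closing section) were picked for their role or after their values were seen. Positions are from GENCODE M21 and promoters from RefSeq, both of the build of the files. Protein sequences were not used here, and 1 gene of the lists is not reported here.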

Additional observations from a re-analysis of the deposited data

Results flagged for a closer look

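The difference between the libraries in Mmp12 went in opposite directions in different states. Mmp12 was 2.47-fold higher in Fcmr-/- cells of the inflammatory-like state 3 (311.6 against 769 CPM) and 1.57-fold higher in state 6 (2093 against 3279 CPM). In the Cxcl9-high-like state 2 the Fcmr-/- level was 0.484 times the Fcmr+/+ level (678.6 against 329 CPM, interval 0.456 to 0.514). The value for state 2 rests on 75 Fcmr+/+ cells with 1207 Mmp12 UMIs, beside 1916 Fcmr-/- cells with 12230. Over the Fcmr+/+ library, 5% of cells held 57.2% of Mmp12 UMIs, so a few cells could set this value. The interval covers counting error and not the spread between cells. With 1 library per genotype, the difference between states was not tested. It was picked out because a member was at least 1.5-fold higher in 1 state and at least 1.5-fold lower in another, with both counting intervals clear of 1, and no other member met this.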

How the results depend on the processing

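Mmp8 and Mmp13 were at least 1.5-fold higher in the Fcmr-/- library under each of the 16 alternatives tried, which covered scaling, pseudocount, filters on cells and genes, thinning, doublet scores, state weights and left-out cells. Timp1 and Timp2 were at least 1.5-fold lower under all of them but 2. With states weighted by their Fcmr+/+ shares, the count of lower members was 0. Without the cells of state 2 it was 1 (Timp2), and the count of higher members was 3 with Mmp12. Over the settings that give one, the log2 ratio ran from 1.34 to 1.80 for Mmp8, 0.99 to 1.44 for Mmp13, 0.32 to 0.68 for Mmp12, -0.80 to -0.47 for Timp1 and -0.73 to -0.34 for Timp2, and no member changed direction. The 3 linked pairs were kept by all alternatives except Spearman's rho, which kept 2, and 7 members passed the 2-fold spread between states under each of the 7 other state settings. The shared peak of Mmp8, Mmp12 and Mmp13 was not kept under all of these settings. Alternatives that left out state 2 or cells with genes of other cell types were chosen after seeing the data.

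No paired analysis was possible because each genotype had 1 library, and likewise no replicate was available to leave out. The spread between mice is not known, so counting intervals understate the error of every difference between the libraries. Mmp9, with 87 and 125 UMIs, was too scarce at this depth for values by state.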

Other observations

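Scarce relatives showed local patterns. Mmp10, which encodes stromelysin 2 and lies between Mmp12 and Mmp8, had 85 UMIs in Fcmr+/+ and 83 in Fcmr-/- cells, and over both libraries was at 3.82 CPM in the Cdkn1c and Adm-high state 10 against 0.0693 CPM in its lowest state. Mmp25, which encodes a membrane-anchored protease known from leukocytes, had 12 and 46 UMIs, a 3.95-fold higher level in the Fcmr-/- library (2.06 to 8.19), with its highest level over both libraries, 0.745 CPM, in the interferon-high-like state 7. Mmp27 was highest in the Gpr34 and Gas6-high state 4, at 32.7 CPM in Fcmr+/+ and 38.8 CPM in Fcmr-/- cells, the state in which Timp2 was also highest. These genes were chosen after their values were seen and no explanation was examined.

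Mmp14 and Mmp19 shared Thbs1, which encodes thrombospondin 1, among their closest correlates, below the limit of 0.2. Its r was 0.15 and 0.16 with Mmp14 and 0.15 and 0.14 with Mmp19 in Fcmr+/+ and Fcmr-/- cells. The r of Mmp19 with Fn1, which encodes fibronectin, was 0.17 in both libraries.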
